A study of Capra hircus with 10 samples.

Results

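The nuclear-encoded subunits of the oxidative phosphorylation machinery were examined in whole goat ovaries (Anhui white breed). Members were the protein-coding genes whose symbols follow the naming of complex I (NDUFA, NDUFB, NDUFC, NDUFS and NDUFV), complex II (SDHA to SDHD) and ATP synthase (ATP5). The rule also asked for symbols of complexes III and IV, which matched no row. These complexes and the subunits encoded by mitochondrial DNA were therefore not analysed here, apart from NDUFA4. That gene is now assigned to complex IV but was counted in complex I by its symbol. In all, 59 of 20587 gene symbols were members, with 38 in complex I, 4 in complex II and 17 in ATP synthase. The study compared 5 luteal phase ovaries with 5 follicular phase ovaries (no treatment is named), taken at a slaughterhouse and sequenced as 1 ribosomal RNA-depleted, strand-specific library per ovary. Ages and hormone levels are not given in the labels, and nothing there says whether the ovaries of a phase came from separate goats, so p-values measure the spread between these ovaries. The unit is FPKM (mapped fragments corrected for the length of the transcript and for the number of fragments mapped in the library), summed over the transcripts of each gene. The number of reads behind each value is unknown.

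Complex I takes electrons from NADH and complex II takes them from succinate. Both pass them to ubiquinone, and the flow drives the proton pumps of the chain, complex I among them, whose gradient ATP synthase uses to make ATP. In the luteal phase the corpus luteum, whose steroid-producing cells are rich in mitochondria, makes progesterone from cholesterol, and the first cleavage of cholesterol takes place inside mitochondria.

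Of the 59 member genes 27 rose in the luteal phase, by folds of 1.15 to 2.77, and none was called lower. Differences between the phases (luteal minus follicular) were fitted with limma to log2(FPKM + 0.1), with Benjamini-Hochberg adjustment over the 15359 genes that reached an FPKM of 0.1 in at least 5 ovaries, and an adjusted p under 0.05 was counted as a call. All 59 members passed this filter. Of them 27 (45.8%) were called, all higher in the luteal phase, while over all genes 43.7% were called, 15.9% higher and 27.8% lower in the luteal phase. The share of members called was near that of all genes, whose calls went in both directions. In 16 members the lowest luteal phase ovary lay above the highest follicular phase ovary, and in none did the phases separate the other way. Over all genes 11.2% separated with the luteal phase higher and 17.2% with it lower. The median log2 fold change over the members was 0.27, a fold of 1.2, against -0.14 over all genes, and 56 members lay above the median of all genes. Most changes were small, since 9 members had a fold of at least 1.5 and 2 a fold of at least 2. These 2 were NDUFA4L2 and NDUFA4, which are not plain complex I subunits. Of the other members SDHA had the largest fold, 1.76. After quantile normalization 26 members were called higher and 5 were called lower, namely SDHB, NDUFS4, NDUFS5, NDUFC2 and ATP5O. Luteal phase excess made up 36.3% of the calls over all genes. This share was 48.8% with all ovaries set to the same median, 52.1% on a TPM scale and 41.8% with quantile normalization. Of the 27 members called 19 remained called in each of 10 fits that left out 1 ovary. In whole-ovary RNA a change in the number of cells of a type and a change in RNA per cell cannot be told apart.

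**Figure D1:**
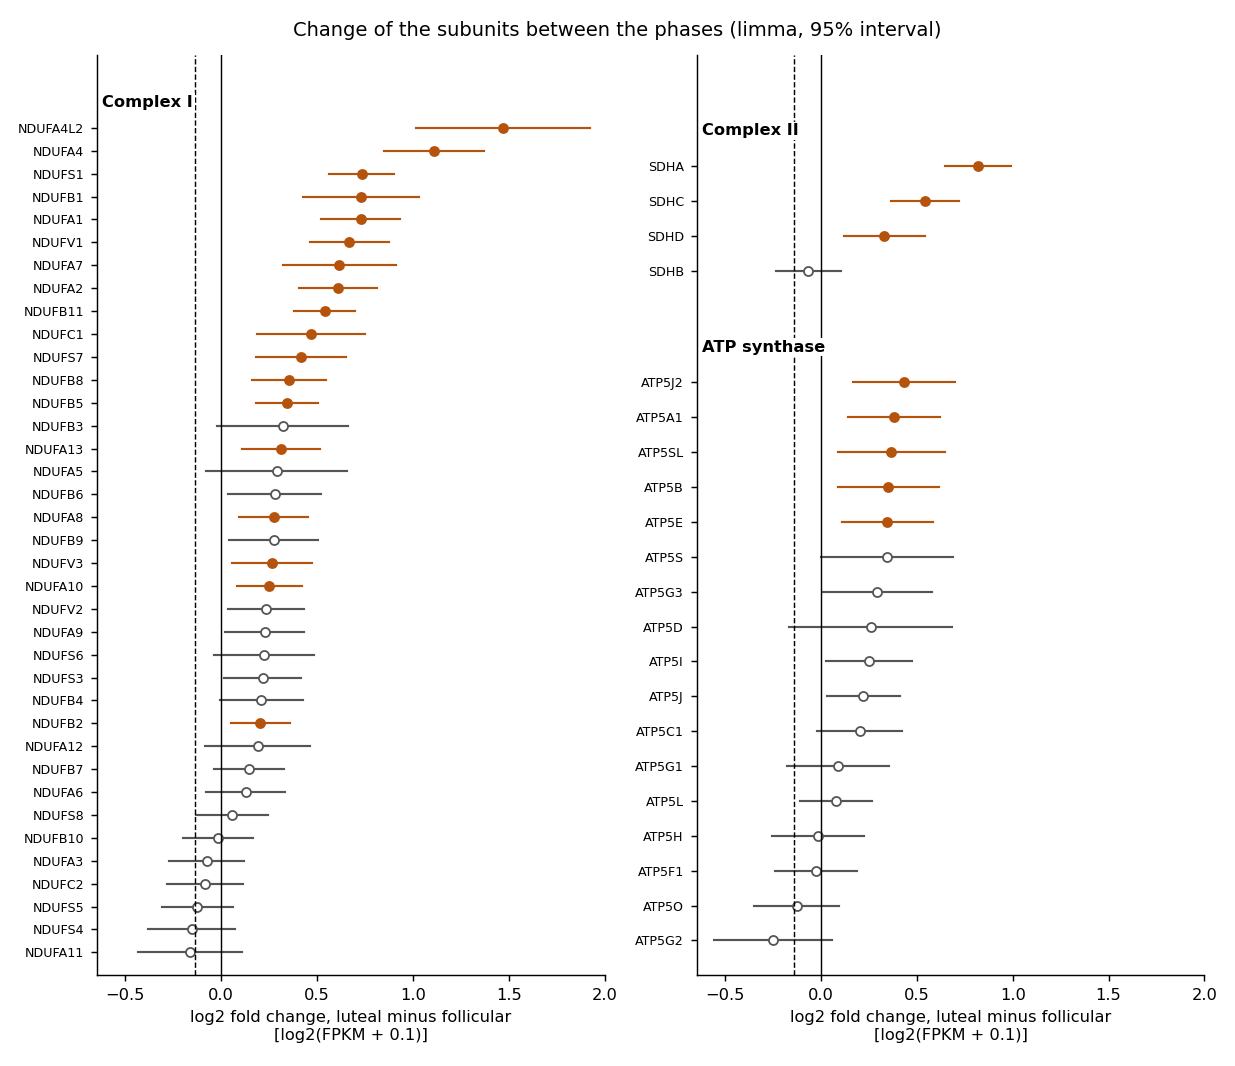
Log2 fold change (luteal minus follicular, on FPKM + 0.1) of the subunit genes reported here with their 95% limma intervals, in the order of the change within complex I, complex II and ATP synthase. Filled points were called at an adjusted p under 0.05 and open points were not, the solid line marks no change and the dashed line the median of all genes (-0.14); filled points all lie to the right of 0.

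In complex II SDHA, SDHC and SDHD rose and SDHB was not called. SDHA, the flavoprotein that oxidizes succinate, had FPKM of 92.9, 98.1, 89.8, 109 and 106 in the luteal phase ovaries and 60.5, 60.3, 50.4, 56.9 and 52.8 in the follicular phase ovaries. The lowest luteal phase value was well above the highest follicular phase value. The mean was 99.2 ± 8.29 in the luteal phase against 56.2 ± 4.51 in the follicular phase (± SD, n = 5), a log2 fold change of 0.82 ± 0.08 (SE) with a limma adjusted p of 2.01e-05. SDHB, the iron-sulfur protein that takes electrons from SDHA, had FPKM of 69.9, 81.6, 64.3, 72.3 and 63.5 in the luteal phase against 71.7, 77.2, 68.7, 77.6 and 72.3 in the follicular phase. Its phases overlapped throughout, and its log2 fold change of -0.07 (95% interval -0.24 to 0.10, limma adjusted p = 0.50) was not called. The sign of that small value turned to 0.017 once all ovaries were set to the same median and to 0.031 on a TPM scale, while after quantile normalization it was -0.17 and called (limma adjusted p = 0.0488).

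SDHC and SDHD anchor complex II in the inner membrane and hold its ubiquinone site. SDHC had FPKM of 40.2, 44.5, 43.5, 46.3 and 40.7 in the luteal phase against 31.2, 30.1, 24.6, 32.8 and 29.3 in the follicular phase, again without overlap. Its log2 fold change was 0.54 ± 0.08 (SE, limma adjusted p = 0.000417). SDHD had FPKM of 116, 121, 96.4, 127 and 101 in the luteal phase against 82.7, 102, 83.2, 95.2 and 82.5 in the follicular phase. It was called at a log2 fold change of 0.33 ± 0.10 (SE, limma adjusted p = 0.0165), although luteal ovaries 3 and 5 lay below follicular ovary 2. In all, 3 of 4 members of complex II rose, 2 of them without overlap, with a median log2 fold change of 0.44 over the 4. Among all genes 43.7% were called and 15.9% were called higher, and 11.2% separated with the luteal phase higher.

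**Figure D2:**
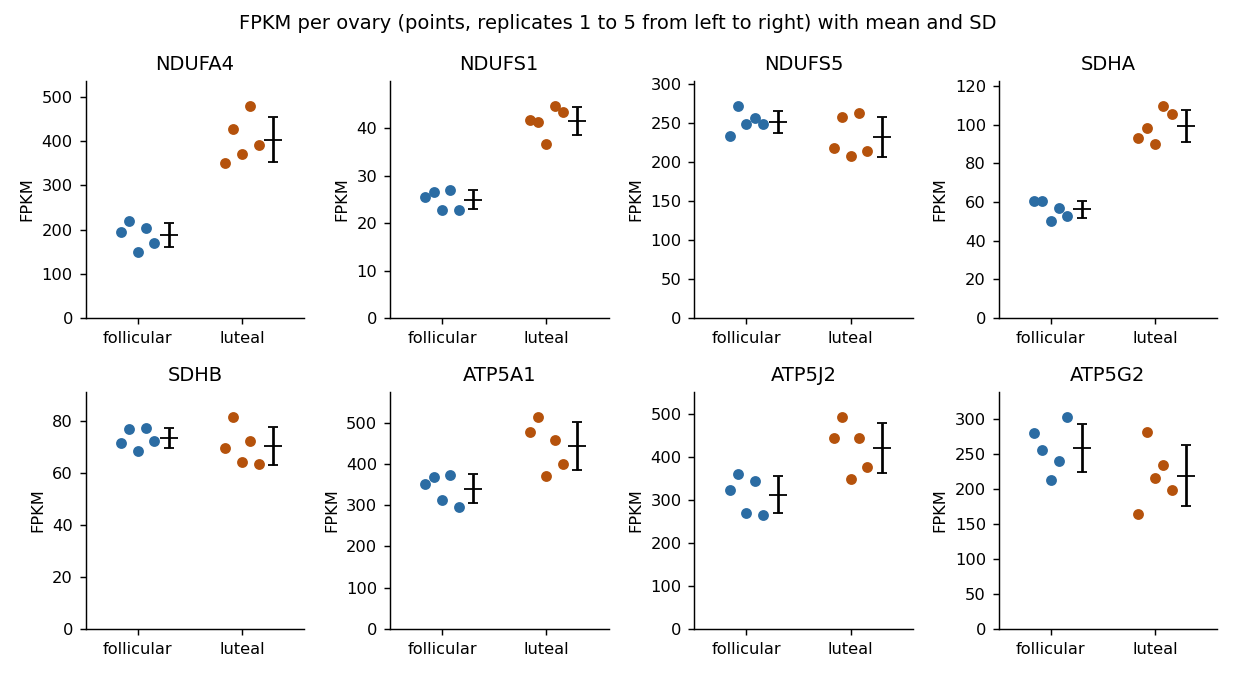
FPKM of 8 subunit genes in each ovary (points, follicular phase at left and luteal phase at right, replicates 1 to 5 from left to right) with the mean and SD of the phase beside them. NDUFA4, NDUFS1 and SDHA separate the phases, ATP5A1 and ATP5J2 are higher with overlap, and NDUFS5, SDHB and ATP5G2 overlap and were not called.

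In complex I 19 of 38 members (50%) rose, 14 of them without overlap, and the median log2 fold change was 0.27. Over all genes 43.7% were called, 15.9% were called higher and 11.2% separated with the luteal phase higher. The core subunits encoded in the nucleus carry the flavin and the iron-sulfur clusters. They had a median log2 fold change of 0.23, and NDUFS1, NDUFV1 and NDUFS7 were among those called. NDUFS1, which holds several of the iron-sulfur clusters of the electron input module, had FPKM of 41.7, 41.2, 36.7, 44.6 and 43.5 in the luteal phase against 25.6, 26.6, 22.7, 27.1 and 22.9 in the follicular phase. Every luteal phase ovary was above every follicular phase ovary, and the log2 fold change was 0.73 ± 0.08 (SE, limma adjusted p = 3.74e-05). NDUFV1, the subunit that binds NADH, was nearly as far apart, with a range of 49.8 to 62.2 FPKM in the luteal phase against 30.3 to 40.8 in the follicular phase and a log2 fold change of 0.67 (limma adjusted p = 0.000283). NDUFS7, which lies close to the ubiquinone site, had a log2 fold change of 0.42 (limma adjusted p = 0.00921). Of the core subunits without a call, NDUFV2, NDUFS3 and NDUFS8 had values of 0.23, 0.22 and 0.05.

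The accessory subunits surround that core. Of the 31 other symbols in the complex I list 15 rose, or 13 of 29 without NDUFA4 and NDUFA4L2. In fits that left out 1 ovary NDUFV3 lost its call 8 times (all but luteal ovary 3 and follicular ovary 2), NDUFB2 5 times (luteal ovaries 2 and 4, follicular ovaries 3, 4 and 5), NDUFA8 without luteal ovary 4 or follicular ovary 3, and NDUFA10 without luteal ovary 2 or follicular ovary 3. The symbols with the largest log2 fold changes were NDUFA4L2 and NDUFA4, and neither is a plain complex I subunit. NDUFA4 kept its old name but is now assigned to complex IV, and NDUFA4L2 is its paralogue, known as a gene induced by low oxygen. NDUFA4 had FPKM of 349, 426, 372, 478 and 391 in the luteal phase against 195, 219, 149, 203 and 171 in the follicular phase. The gap between the lowest luteal phase ovary and the highest follicular phase ovary was larger than the whole range of the follicular phase. NDUFA4 averaged 403 ± 50.5 FPKM in the luteal phase against 187 ± 27.6 in the follicular phase (± SD, n = 5), a fold of 2.16 and a log2 fold change of 1.11 ± 0.12 (SE, limma adjusted p = 4.40e-05). It moved from behind NDUFS5 in the follicular phase to the highest FPKM of the symbols in the complex I list in the luteal phase. NDUFA4L2 was a low gene, with FPKM of 4.02, 3.14, 2.71, 3.34 and 4.17 in the luteal phase against 1.48, 0.929, 1.77, 1.09 and 0.834 in the follicular phase. Its log2 fold change was 1.47 ± 0.21 (SE, limma adjusted p = 0.000277), and the phases did not overlap. Without NDUFA4, NDUFA4L2, ATP5S and ATP5SL, which are not canonical subunits of complex I, complex II or ATP synthase, 24 of the remaining 55 members (43.6%) were called, all higher in the luteal phase, a share close to the 43.7% called over all genes.

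Among the accessory subunits proper, NDUFB1, NDUFA1 and NDUFB11 of the membrane arm and NDUFA7 and NDUFA2 of the matrix arm had log2 fold changes of 0.73, 0.73, 0.54, 0.62 and 0.61, all without overlap. NDUFA1, which is needed for the membrane arm to assemble, was the most abundant of these, at 208 ± 25.5 FPKM in the luteal phase against 125 ± 11.6 in the follicular phase (± SD, n = 5). At the other end were NDUFA11 and NDUFS5 of the membrane arm and NDUFS4, which helps to hold the electron input module in place. NDUFS5 had FPKM of 217, 257, 208, 262 and 214 in the luteal phase against 233, 271, 249, 257 and 249 in the follicular phase. Luteal ovaries 2 and 4 stood among the follicular phase ovaries and the other 3 below them, and the log2 fold change was -0.12 (95% interval -0.31 to 0.06). NDUFA11 and NDUFS4 had log2 fold changes of -0.16 (-0.43 to 0.11) and -0.15 (-0.38 to 0.07), and none of the 3 was called. Subunits of the same complex and arm were thus found both among the largest changes and among those with no call. A difference between subunits was not itself tested.

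In ATP synthase 5 of 17 members (29.4%) were called, all higher, and in none were the phases fully separated, while over all genes 43.7% were called and 15.9% were called higher. The median log2 fold change was 0.25, and 0.16 after quantile normalization. The catalytic head, F1, held 3 of these calls among its 5 subunits. ATP5A1, the alpha subunit, had FPKM of 478, 514, 370, 458 and 399 in the luteal phase against 351, 368, 313, 374 and 295 in the follicular phase. Luteal ovary 3 lay just under follicular ovary 4, and the log2 fold change was 0.38 ± 0.11 (SE, limma adjusted p = 0.0160). ATP5B, the catalytic beta subunit, had a log2 fold change of 0.35 (limma adjusted p = 0.0352), and ATP5C1 and ATP5D of the central stalk had 0.20 and 0.26 and were not called. The ATP5B call was kept only without luteal ovary 3 or follicular ovary 1 or 2. ATP5E, the small epsilon subunit, had the highest FPKM of all members, with 749, 873, 667, 851 and 725 in the luteal phase against 621, 646, 514, 681 and 577 in the follicular phase. Its log2 fold change was 0.35 ± 0.11 (SE, limma adjusted p = 0.0236), and luteal ovary 3 overlapped the follicular phase. The ATP5E call was lost, at limma adjusted p between 0.0505 and 0.0608, when luteal ovary 2 or 4 or follicular ovary 3 or 5 was left out.

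Of the membrane subunits that join ATP synthase into dimers, ATP5J2 was called. It had FPKM of 443, 492, 349, 444 and 377 in the luteal phase against 324, 359, 269, 345 and 265 in the follicular phase. Luteal ovary 3 fell below follicular ovary 2, and the log2 fold change was 0.43 ± 0.12 (SE, limma adjusted p = 0.0145). ATP5I and ATP5L, the other 2 of this group, had 0.25 and 0.08 and were not called. The fifth call was ATP5SL, since renamed and known as an assembly factor of complex I, at 7.25 ± 0.989 against 5.62 ± 0.828 FPKM (± SD, n = 5) and a log2 fold change of 0.36 (limma adjusted p = 0.0371). It lost its call without luteal ovary 1, 2 or 4 and without follicular ovary 1, 3 or 5. The peripheral stalk, which holds F1 still while the rotor turns, had no call among its 4 members and a median log2 fold change of -0.02. Of all genes 43.7% were called. In this stalk ATP5O, its top, had -0.13 (95% interval -0.35 to 0.09), ATP5F1 had -0.03 (-0.24 to 0.19), ATP5H had -0.01 (-0.26 to 0.23) and ATP5J had 0.22 (0.03 to 0.41, limma adjusted p = 0.0608). ATP5J was called higher with all ovaries set to the same median, on a TPM scale and after quantile normalization, which also called ATP5O lower. The sign of the small ATP5F1 value changed with all ovaries set to the same median (0.057), on a TPM scale (0.071) and in some fits without 1 ovary.

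The c ring is the rotor in the membrane, and ATP5G1, ATP5G2 and ATP5G3 code for the same mature c subunit behind different import signals. How fragments shared by these related genes were divided is not given in the sources used here, so their separate values are less certain. ATP5G2 had FPKM of 164, 281, 215, 235 and 198 in the luteal phase against 280, 255, 213, 240 and 302 in the follicular phase. ATP5G3 had 201, 223, 156, 186 and 142 in the luteal phase against 149, 167, 127, 160 and 131 in the follicular phase. Neither gene was called on its own, at log2 fold changes of -0.25 (95% interval -0.56 to 0.06) and 0.29 (0.01 to 0.58). Within an ovary, the log2 ratio of ATP5G2 to ATP5G3 was -0.29, 0.33, 0.47, 0.33 and 0.48 in the luteal phase against 0.91, 0.61, 0.75, 0.58 and 1.2 in the follicular phase, so that the phases did not overlap. The difference of -0.54 had a two-sided exact permutation p of 0.00794, the smallest that 5 ovaries against 5 allow, and an adjusted p of 0.0238 over the 3 pairs of related genes compared. It was no longer called without luteal ovary 1 (-0.41) or without follicular ovary 5 (-0.45), both at an exact permutation adjusted p of 0.0714, while the adjusted p was 0.0238 without any other single ovary. ATP5G1, the lowest of the 3, had 32.6 ± 4.05 FPKM in the luteal phase against 30.7 ± 4.64 in the follicular phase (± SD, n = 5). Its log2 ratio to ATP5G3 differed by -0.20 (exact permutation adjusted p = 0.238), and that of NDUFA4L2 to NDUFA4 differed by 0.36 (exact permutation adjusted p = 0.246).

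**Figure D3:**
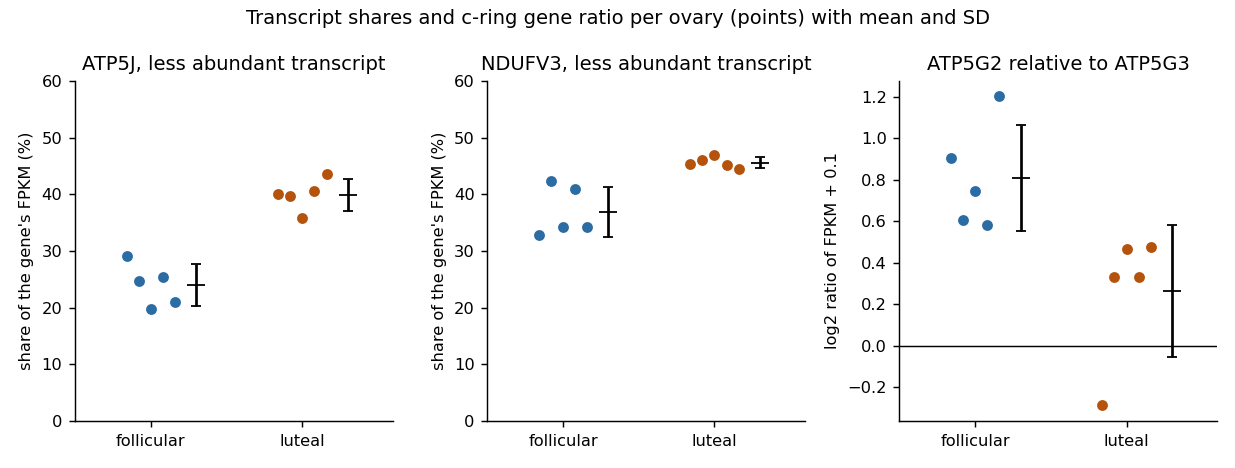
Share of the gene's FPKM held by the less abundant transcript of ATP5J and of NDUFV3 (percent, left and middle) and log2 ratio of ATP5G2 to ATP5G3 (right) in each ovary (points), with the mean and SD of the phase. In all 3 panels the phases do not overlap, and luteal ovary 1 is the only ovary with a ratio below 0.

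Of the 59 members 15 had more than 1 transcript in the table, and in 7 of them the second transcript held at least 10% of the FPKM in a phase. ATP5J, the coupling factor of the peripheral stalk, was the clearest case, chosen after its values were seen and given without a test. Its second transcript held 40.0%, 39.7%, 35.8%, 40.6% and 43.7% of the FPKM in the luteal phase ovaries and 29.1%, 24.7%, 19.8%, 25.4% and 21.1% in the follicular phase ovaries. The second transcript stood at 78.1 FPKM on average in the luteal phase against 40.6 in the follicular phase, while the first stood at 117 and 127. The second transcript of NDUFV3, a small accessory subunit of the electron input module, held 44.5% to 46.9% in the luteal phase against 32.8% to 42.3% in the follicular phase. Shares of the remaining members overlapped between the phases, apart from NDUFB8, whose second transcript held under 1% in every ovary. Transcript shares rest on how the authors' software divided fragments between overlapping transcripts, which is less certain than the sum per gene.

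The summed FPKM of a complex shows how much of its signal each member carries. Complex I members summed to between 2856 and 3549 FPKM in the luteal phase against 2292 to 2801 in the follicular phase, a ratio of means of 1.25. NDUFA4 alone made up 33.8% of the 638 FPKM between the phase means, and NDUFA1 made up 13.0%. Complex II summed to between 294 and 355 FPKM against 227 to 270, a ratio of 1.31, with SDHA holding 56.3% of the difference. ATP synthase summed to between 3478 and 4514 FPKM against 2988 to 3775, a ratio of 1.15. Of that difference ATP5E held 31.3%, ATP5J2 20.6% and ATP5A1 19.6%. The sums of complexes I and II did not overlap between the phases, and those of ATP synthase did. The separation of complex I was narrow, with 2856 FPKM in luteal ovary 3 against 2801 in follicular ovary 2. There NDUFA4 supplied 372 and 219 FPKM and NDUFA1 217 and 133. In complex II the same ovaries had 294 and 270, of which SDHA supplied 89.8 and 60.3. The complex I separation was lost without NDUFA4 and NDUFA4L2. The sums were then 2481 to 3068 FPKM against 2142 to 2581, a ratio of 1.18, and luteal ovary 3 lay below follicular ovaries 2 and 4.

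**Figure D4:**
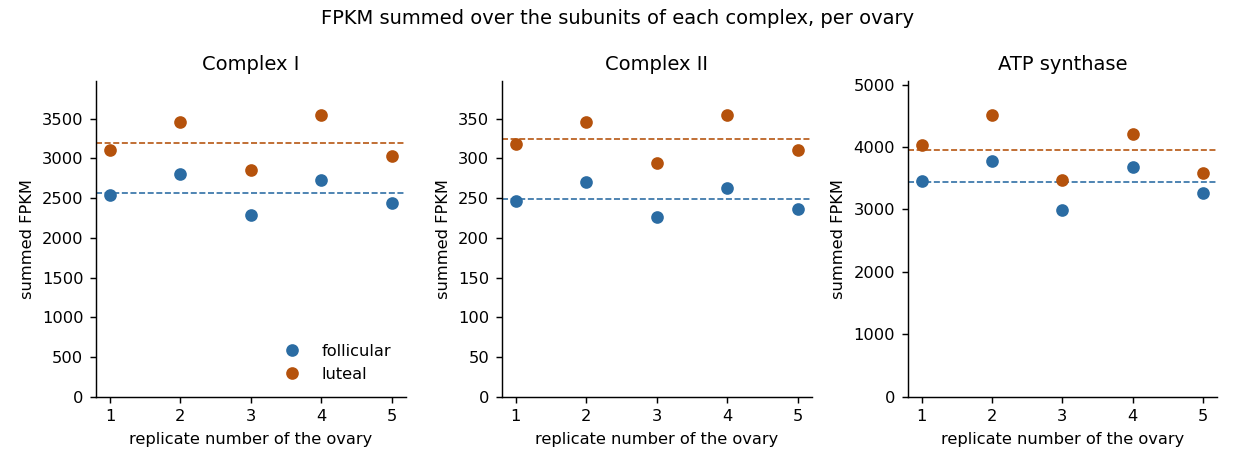
FPKM summed over the members of complex I, complex II and ATP synthase in each ovary (points, by replicate number, with dashed lines at the phase means). Luteal phase sums of complexes I (NDUFA4 and NDUFA4L2 included) and II all lie above the follicular phase sums, and those of ATP synthase overlap.

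All members together summed to 6627 to 8318 FPKM in the luteal phase against 5507 to 6847 in the follicular phase, with overlap and a ratio of means of 1.2. FPKM of all transcripts summed to 479169 on average in the luteal phase against 513194 in the follicular phase. Of this total the members held 1.56 ± 0.0996% of the summed FPKM of all transcripts in the luteal phase against 1.22 ± 0.0741% in the follicular phase (± SD, n = 5), without overlap. Within a phase the members varied little, with a median coefficient of variation of 11.6% in the luteal phase against 10.6% in the follicular phase. In the follicular phase NDUFA13 was the most even member (3.20%) and NDUFA4L2 varied most (32.3%). Ovaries of a phase differed in the same direction for many members at once. Luteal ovary 3 was the lowest of its phase for 42 members and follicular ovary 3 for 40, while luteal ovary 2 was the highest for 28 and luteal ovary 4 for 21, and follicular ovary 2 for 29 and follicular ovary 4 for 18. Uncalled members were not shown to be equal between the phases. The 32 of them had 95% intervals within -0.56 and 0.69 on the log2 scale, 21 had a positive value, and 8 had an unadjusted limma p under 0.05.

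Of 27 tested assembly factors of the respiratory chain and ATP synthase 7 rose and 2 fell (33.3% called, against 43.7% of all genes), with a median log2 fold change of 0.07. FOXRED1, which helps to assemble complex I, had the highest value (0.52, limma adjusted p = 0.0162), and LYRM7, an assembly factor of complex III, had the lowest (-0.36) and was not called. USMG5, a small membrane protein of ATP synthase outside the naming rule, rose from 207 ± 25.3 FPKM in the follicular phase to 281 ± 26.6 in the luteal phase (± SD, n = 5) with a log2 fold change of 0.44 (limma adjusted p = 0.00464). ATPIF1, the inhibitor of ATP synthase, had 0.23 and was not called.

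Of 17 tested regulators of mitochondrial biogenesis 2 rose and 8 fell, with a median log2 fold change of -0.34. All genes also fell more often than they rose (27.8% against 15.9%), with a median of -0.14. Those that fell included the nuclear respiratory factor NRF1 (-0.47), GABPB1 (-0.53) and TFAM (-0.35), the main factor that packages and transcribes mitochondrial DNA. The lowest was ESRRG (-1.40, limma adjusted p = 0.00220), an orphan receptor at 0.154 ± 0.0436 FPKM in the luteal phase against 0.606 ± 0.262 in the follicular phase (± SD, n = 5). With a pseudocount of 1 its log2 fold change was -0.46. HIF1A, the oxygen-sensing factor, had the highest value (0.60, limma adjusted p = 0.0252) and lost its call without luteal ovary 1 or 2 or follicular ovary 3 or 5. ESRRA was the other regulator that rose (0.40, limma adjusted p = 0.00365), without overlap between the phases. GABPA had -0.04 and was not called. Of 14 markers of mitochondrial mass 2 rose and 1 fell, with a median of 0.10. HSPD1, the matrix chaperonin, rose from 143 ± 29.3 to 395 ± 64.1 FPKM (log2 fold change 1.47, limma adjusted p = 3.30e-05), while PHB2, a prohibitin of the inner membrane, fell by 0.45 on the log2 scale (limma adjusted p = 0.00222).

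**Figure D5:**
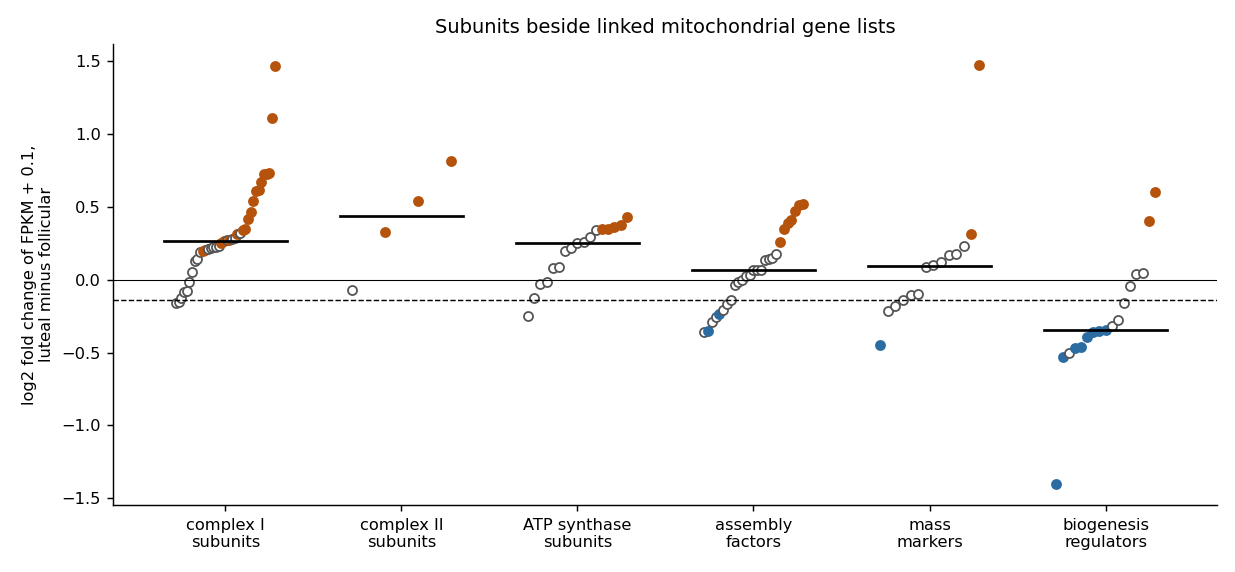
Log2 fold change (luteal minus follicular, on FPKM + 0.1) of the tested genes of 6 groups, namely complex I, complex II and ATP synthase subunits, assembly factors, markers of mitochondrial mass and regulators of biogenesis. Filled points were called (orange higher, blue lower in the luteal phase), bars are group medians and the dashed line is the median of all genes; the medians run from 0.44 for complex II to -0.34 for the regulators.

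Markers of the cell types of the ovary also differed by phase. Their counts stand beside 43.7% of all genes called, 15.9% higher and 27.8% lower in the luteal phase. All 9 corpus luteum markers tested were higher in the luteal phase, with a summed FPKM of 6435 to 8648 against 192 to 264. Luteal ovary 3 had the lowest of these luteal phase sums and luteal ovary 1 the highest. For the subunit members luteal ovary 3 had the lowest sum and luteal ovary 2 the highest. Of the endothelial markers 8 of 9 were higher (summed FPKM 287 to 376 against 165 to 200). None of 10 granulosa cell markers rose and 6 fell (176 to 776 against 320 to 1337), and 8 of 11 smooth muscle and pericyte markers fell and 2 rose (829 to 1388 against 1566 to 1947). Of 11 oocyte markers 6 fell and 1, KIT, rose (70.2 to 102 against 28.4 to 62.8). KIT stood at 73.9 ± 17.2 FPKM in the luteal phase against 11.9 ± 0.918 in the follicular phase (± SD, n = 5). The oocyte sums averaged 86.9 and 41.2 FPKM, so KIT carried most of the luteal phase sum. The other 10 oocyte markers had negative log2 fold changes. Stroma markers were divided, with 3 of 8 higher and 2 lower (3424 to 5743 against 2719 to 3843), 3 blood markers had no call (23.5 to 27.2 against 19.7 to 36.9), and 1 of 7 striated muscle markers was higher (8.24 to 12.9 against 10.7 to 15.7). The part of these differences in the values of the subunit genes was not tested.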

How the data were processed

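RNA of 5 luteal phase and 5 follicular phase goat ovaries was sequenced as 1 library per ovary. The authors used HISAT2 for alignment, StringTie for assembly and Cuffdiff for the FPKM of each transcript in each ovary, without pooling, and the deposited FPKM were used as they stand. The genome build is not given in the sources used here.

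FPKM of protein-coding transcripts were summed per symbol. Genes that reached an FPKM of 0.1 in 5 or more ovaries entered the test on log2(FPKM + 0.1) with limma 3.58.1 in R 4.3.3 (lmFit, then eBayes with trend), two-sided. p-values were adjusted by Benjamini-Hochberg over all 15359 genes. Fold changes on this scale understate the change of low genes. Ratios of related genes were compared by exact permutation of the ovaries over 252 splits. The steps were tested on simulated data. Python 3.11.15, pandas 2.3.3, numpy 2.4.6 and matplotlib 3.10.9 were used for the rest.

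The members and gene lists were chosen with earlier results of these data known. Named with values were up to 3 members with the highest and 3 with the lowest change per complex, the most abundant members, related pairs, and the extremes of each linked list, and further members were named after their values were seen. The alternatives tried were quantile normalization, a TPM scale, all ovaries set to the same median, pseudocounts of 0.01 and 1, and a filter at an FPKM of 1 or none. Others were the replicate number as a block, eBayes without trend, the highest transcript of each gene, a threshold of 0.01, and leaving out each ovary. A last one left out NDUFA4L2, ATP5S and ATP5SL, and its counts of members kept NDUFA4. Values without NDUFA4 and NDUFA4L2 were added after the data were seen. A withheld item is counted but not reported here.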

Additional observations from a re-analysis of the deposited data

Results flagged for a closer look

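In 3 of 68 groups of 5 ovaries examined, 1 ovary lay far from the other 4 by Dixon's criterion, which chance alone meets in about 1 of 20 groups. NDUFS4 had an FPKM of 95.5 in luteal ovary 3, while the other luteal phase ovaries lay between 114 and 121. ATP5G1 had an FPKM of 25.6 in luteal ovary 3, while the others lay between 33.4 and 36.0. The log2 ratio of ATP5G2 to ATP5G3 was -0.29 in luteal ovary 1, while the others lay between 0.33 and 0.48.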

How the results depend on the processing

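With 1 ovary left out at a time, between 19 and 34 members were called, all higher in the luteal phase, with 19 without follicular ovary 3. Between 5488 and 7008 genes were called in all. Quantile normalization gave 5 members lower and 26 higher. On a TPM scale 40 members were called, all higher, and 2665 genes were lower against 4272. At an adjusted p under 0.01, 14 members, all higher, 4027 genes and 2371 genes lower in the luteal phase were called. The median log2 fold change over all genes was -0.05 under a common median and under TPM and -0.09 under quantile normalization, against -0.14.

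Without 1 ovary the difference in the log2 ratio of ATP5G2 to ATP5G3 ran from -0.60 to -0.41 and that of ATP5G1 to ATP5G3 from -0.33 to -0.14, with the latter at an exact permutation adjusted p of 0.0238 without luteal ovary 5 (0.131 to 0.417 in its other alternatives). The difference for NDUFA4L2 to NDUFA4 ran from 0.22 to 0.58 without 1 ovary and turned to -0.088 with a pseudocount of 1. The small change of SDHB turned to 0.017 under a common median and 0.031 under TPM, and that of ATP5F1 to 0.057 and 0.071, with a range of -0.074 to 0.032 without 1 ovary. The causes were not tested.

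The replicate numbers do not tie ovaries of the phases together in the labels. Deviations of ovaries with the same number correlated between 0.0258 and 0.199, and 2 of 5 luteal phase ovaries correlated best with their own number. The summed FPKM of the members ranked the ovaries in the same order of numbers in both phases (2, 4, 1, 5 and 3, from the highest). With the replicate number as a block 41 members were called, all higher, and the ATP5G2 to ATP5G3 difference of -0.54 had an exact permutation adjusted p of 0.188, where 5 pairs cannot reach 0.05.

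Of the 27 members called, 8 lost their call in at least 1 fit without 1 ovary (ATP5B, ATP5E, ATP5SL, NDUFA8, NDUFA10, NDUFB2 and NDUFV3 among them), and HIF1A lost its call in 4 fits. Of the 32 uncalled members 11 gained a call, higher in the luteal phase, in at least 1 such fit (ATP5G3, ATP5I, ATP5J, ATP5S, NDUFA9, NDUFB3, NDUFB6, NDUFB9, NDUFS3, NDUFS6 and NDUFV2), and LYRM7 gained one in 1 fit. Over the scalings the median log2 fold change ran from 0.18 (quantile normalization) to 0.36 (TPM) for all members, from 0.18 to 0.37 for complex I, from 0.35 to 0.54 for complex II and from 0.16 to 0.35 for ATP synthase. Among the counts of members and of all genes called, no other moved by over 1.5 times. The depth behind each FPKM is unknown, so counting error could not be given.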
